A study of Homo sapiens with 16 samples.

Results

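RNA polymerase II (Pol II) was followed over 6 genes that encode transcription factors, MYC, KLF4, KLF6, NR4A1, NR4A2 and NR4A3, in human cells given the topoisomerase II inhibitor merbarone. The genes were taken by name, each with its span on the hg19 genome, 2 kb before its first base and 5 kb past its last. The rule that names them uses no measured value, but the choice was made with earlier results of these data known. They are set against Pol II regions, single peaks and fixed stretches of the whole genome, since genes could not be named elsewhere on hg19 here. Regions were ranked among the 5902 of at least 5 kb, out of 22314 in all. All 6 had Pol II somewhere in their window without the drug, but in very different forms. MYC and KLF6 lay under Pol II along nearly their whole length, while KLF4, NR4A2 and NR4A3 had it at or before the start alone and NR4A1 had it at a few inner sites.

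These genes are known as early-response genes, which many cells switch on within minutes of a signal with no need for new protein. At such genes Pol II often starts, halts a short way past the start and waits for release into the gene, a step called promoter-proximal pausing. MYC is a helix-loop-helix factor that pairs with MAX on E-box DNA and raises growth and cell-cycle genes. KLF4 and KLF6 are zinc finger factors that bind GC-rich boxes, and KLF4 is also known for its part in reprogramming cells to pluripotency. NR4A1, NR4A2 and NR4A3, also called NUR77, NURR1 and NOR1, are orphan nuclear receptors. Their activity is set largely by how much of them a cell makes.

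All groups were hTERT RPE-1 cells, labelled wild type. This line comes from human retinal pigment epithelium and was immortalised with telomerase. Every group was kept for 48 h in medium with 0.1% serum. Merbarone stops topoisomerase II before it cuts DNA, and it was used at 200 uM. The Pol II control group joined 3 libraries given the vehicle DMSO for 30 min and 3 untreated libraries. Pol II was also mapped in 3 libraries after 30 min of merbarone and in 2 after 1 h, with an antibody to the N-terminal part of its largest subunit. Topoisomerase II alpha (TOP2A), which relieves the DNA twist that transcription builds up, was mapped in 2 untreated libraries. The series title states a question on DNA supercoiling and Pol II pausing. No vehicle library matched the 1 h time, and the starved cells limit what the groups say of growing cells.

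Each group had 1 list of peaks, which are stretches of the genome called as bound, with a start and an end and no height. Cover below is the share of a window's bases under peaks. It tells where Pol II was found and not how much, so a gene under peaks from end to end cannot show a further rise. With 1 list a group there is no spread between replicates and no test, and read depth was unknown. The lists differed over the whole genome too. Summed over the genome, Pol II cover came to 42.8 Mb for control, 47.7 Mb for 30 min and 58.3 Mb for 1 h. With peaks less than 38 bp apart merged and those smaller than 159 bp dropped in every list, called like limits below, the sums were 40.6, 46.6 and 58.3 Mb. The smallest peak was 136 bp in control, 150 bp after 30 min and 159 bp after 1 h, and the closest peaks stood 1, 1 and 38 bp apart in that order of lists.

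Promoter sequences of 3 of the genes are shown because Pol II sat on their starts, as a narrow peak that widened with the drug at KLF4 and NR4A3 and as part of a solid stretch at KLF6. They are RefSeq sequences of GRCh38.p14, from 250 bases before the start to 50 after it, read 5′ to 3′ along the gene. These starts are those of the newer build and were not placed on hg19. KLF4 lies at chr9:107489720-107490019 on the minus strand, KLF6 at chr10:3785160-3785459 on the minus strand and NR4A3 at chr9:99821635-99821934 on the plus strand. Capitals mark the short core of the cAMP response element (TGACG, either strand) and the E-box (CACGTG).
KLF4: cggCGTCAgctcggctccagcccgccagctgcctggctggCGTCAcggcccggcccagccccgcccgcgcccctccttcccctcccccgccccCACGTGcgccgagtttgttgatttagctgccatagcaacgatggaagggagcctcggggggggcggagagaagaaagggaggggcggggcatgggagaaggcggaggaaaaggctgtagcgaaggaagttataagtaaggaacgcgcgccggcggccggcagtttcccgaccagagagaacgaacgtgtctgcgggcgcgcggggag
KLF6: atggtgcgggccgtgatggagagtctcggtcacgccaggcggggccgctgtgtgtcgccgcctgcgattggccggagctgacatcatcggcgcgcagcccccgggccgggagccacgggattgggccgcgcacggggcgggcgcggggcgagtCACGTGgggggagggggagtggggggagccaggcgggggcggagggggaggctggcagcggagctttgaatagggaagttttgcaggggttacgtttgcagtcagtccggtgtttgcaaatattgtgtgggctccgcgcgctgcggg
NR4A3: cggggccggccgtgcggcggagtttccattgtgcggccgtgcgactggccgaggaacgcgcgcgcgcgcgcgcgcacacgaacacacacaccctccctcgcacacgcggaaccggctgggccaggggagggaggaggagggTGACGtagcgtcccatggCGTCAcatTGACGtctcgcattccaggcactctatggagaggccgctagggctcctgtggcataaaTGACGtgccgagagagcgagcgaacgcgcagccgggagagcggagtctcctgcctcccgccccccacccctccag

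NR4A3 held 4 such cores, with first bases at -109, -91, -83 and -25 counted from the start, and KLF4 held 2, at -247 and -210. KLF6 held none. The core was present on either strand in 24.6% of the 35116 promoters in the table. The full element TGACGTCA, which contains the core, found in 1.85% of all promoters, was in none of the 3. An E-box stood at -157 in KLF4 and at -97 in KLF6, against 7.26% of all promoters with at least 1. The GC box GGGCGG was found 4 times in KLF4, in 2 places in KLF6 and once in NR4A3, and 45% of all promoters had it. None of the 3 matched the TATA box (TATAAA), the AP-1 site (TGANTCA), the NR4A response element (AAAGGTCA) or the serum response element in this window, read on both strands. These matches are letters in a reference sequence and no factor was mapped here.

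**Figure D1:**
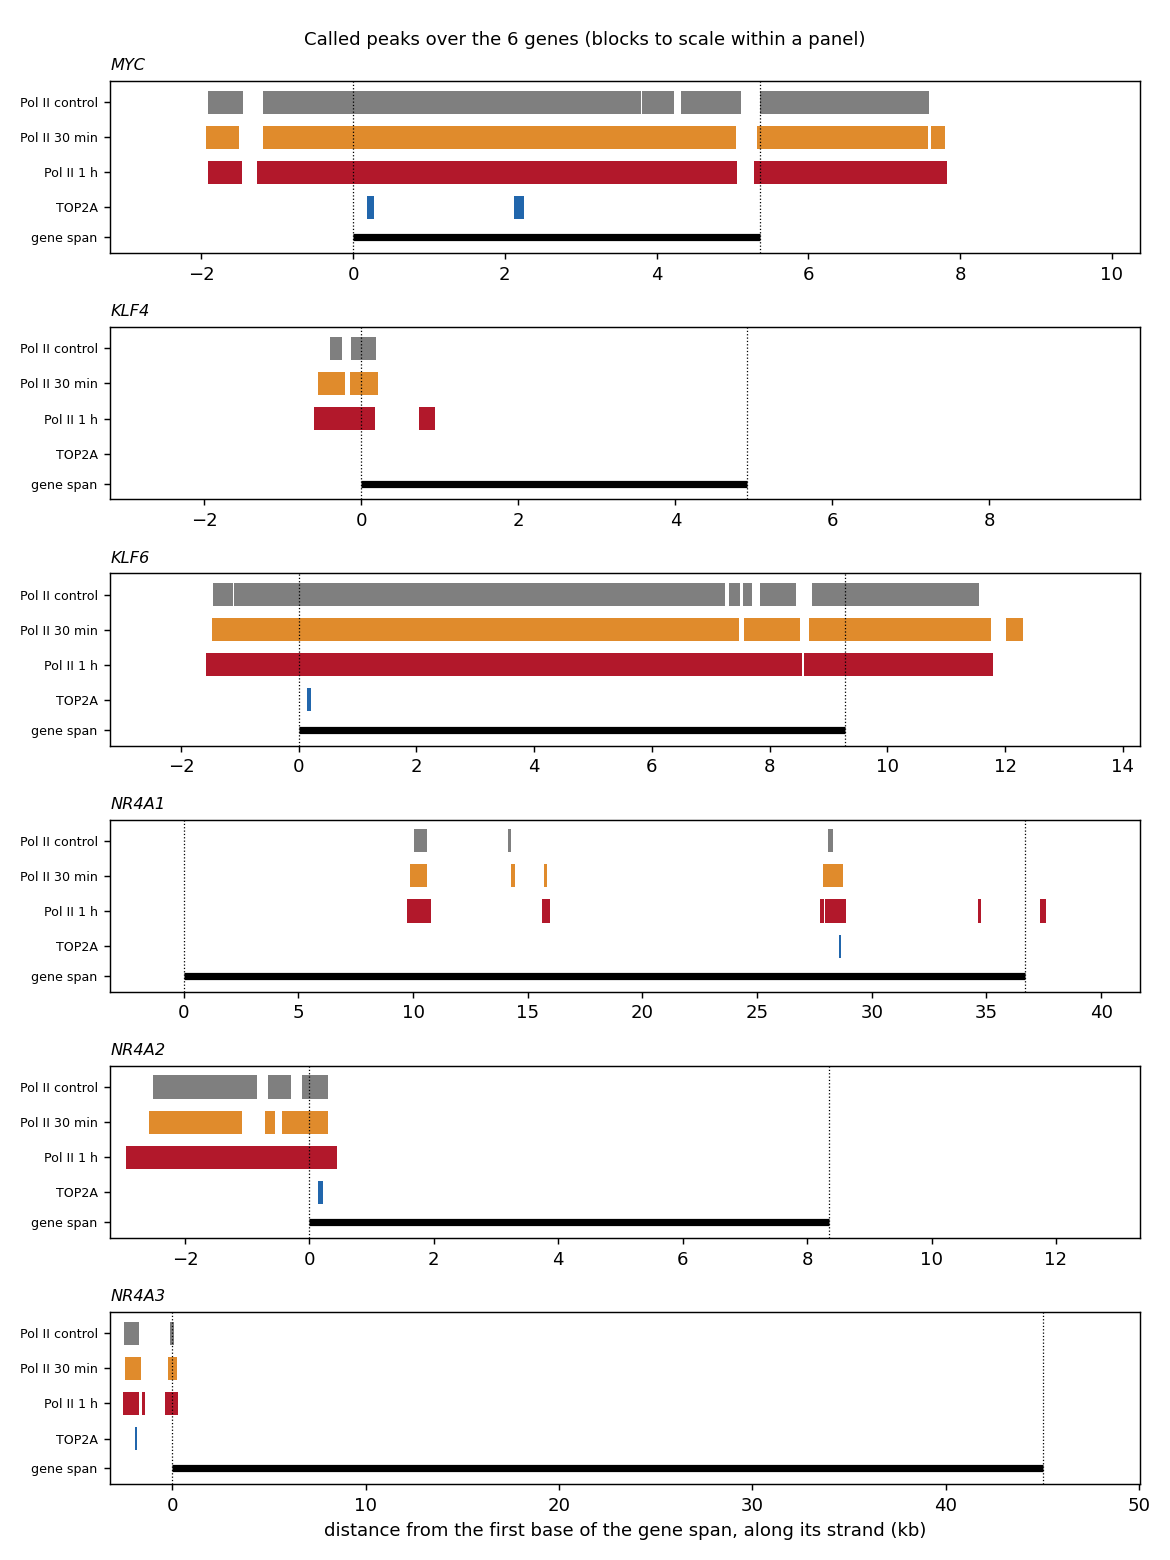
Called peaks over each gene, with distance from the first base of the gene span along its strand in kb on the horizontal axis. Rows show Pol II in control, at 30 min and at 1 h of merbarone, and TOP2A in untreated cells, with the gene span as a black bar between dotted lines; gaps of a few bp are too narrow to see. MYC and KLF6 are covered nearly throughout in every Pol II list, KLF4, NR4A2 and NR4A3 only near the start, and NR4A1 at separate inner sites.

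MYC and KLF6 were the genes under continuous Pol II. MYC spans 5366 bp on chromosome 8 from 128748315 to 128753680 on the plus strand of hg19, and KLF6 spans 9286 bp on chromosome 10 from 3818188 to 3827473 on the minus strand. Within 1 kb either side of the start, Pol II covered 100% in all 3 lists at both genes. The MYC body, taken from 1 kb past the start to the gene end, was covered over 91.5% in control, 93.9% after 30 min and 94.8% after 1 h. The KLF6 body was covered over 93.8%, 97.1% and 99.5% in the same order. These were full or nearly full before the drug, so at most a few points could be added.

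What changed at MYC and KLF6 was how broken the cover was. MYC and its flanks held 5 separate Pol II peaks in control, 4 after 30 min and 3 after 1 h. The peak over its first base ran 3790 bp into the gene in control, 5052 bp after 30 min and 5060 bp after 1 h. That peak was 4975 bp wide in control, 6242 bp after 30 min and 6334 bp after 1 h, so nearly all the lengthening was present at 30 min. KLF6 and its flanks held 7 pieces in control, 4 after 30 min and 2 after 1 h, and its peak over the first base was 7926, 8940 and 10126 bp wide in that order. Here the lengthening went on to 1 h, when the only gap in the gene was 40 bp wide.

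Some of this closing was not seen once the lists had the same limits. With like limits, the control peak over the first base was 5417 bp at MYC and 8699 bp at KLF6. The ratio of 1 h to control was then 1.17 at MYC and 1.16 at KLF6, against 1.27 and 1.28 as deposited. As deposited, control peaks of at least 4 kb had a partner at 1 h that was wider by a median ratio of 1.26. The widening at MYC and KLF6 at 1 h as deposited was thus near that of other long peaks. After 30 min the median ratio of such peaks was 0.995 as deposited, against 1.25 at MYC and 1.13 at KLF6. With like limits the 30 min ratios were 1.15 at MYC and 1.03 at KLF6. No such median was taken with like limits. With peaks within 1 kb joined in every list, the ratio of 1 h to control was 1.03 at both genes. None of the 2 reached 1.5 times the control width, against 10.1% of such peaks after 30 min and 35.8% after 1 h.

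With each gene split into 10 equal parts, the last was the least covered. In KLF6 it was covered over 71.6% in control, 84.2% after 30 min and 95.7% after 1 h, while the first 7 were at 100% in each list. In MYC the last of the 10 was covered over 52.9%, 50.1% and 57.5% in the same order. The last stretch of KLF6 was thus nearly full at 1 h, and that of MYC was not. The KLF6 window gained 841 bp at 1 h against control and lost 0 bp. The MYC window gained 514 bp at 1 h and lost 55 bp.

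Peaks went on past the end of both genes. Walking from the gene end across gaps of up to 1 kb, peaks reached 2226 bp past MYC in control, 2438 bp after 30 min and 2459 bp after 1 h. At KLF6 they reached 2275 bp in control, 3012 bp after 30 min and 2512 bp after 1 h. The longer reach of KLF6 at 30 min came from a separate peak of 286 bp that was absent from the other lists. Cover of the 5 kb downstream of KLF6 was 45.5% in control, 55.4% after 30 min and 50.2% after 1 h, and that of MYC was 44.5%, 47.9% and 49.2%. With peaks of at least 300 bp alone, the 30 min change at MYC turned to -0.28 points, and the change from 30 min to 1 h at KLF6 turned to 0.56 points. No downstream window with a peak changed by 10 percentage points or more, which is 0 of 2 at 30 min and 0 of 3 at 1 h, against 18.1% of 5 kb tiles of the genome after 30 min and 29.5% after 1 h. KLF6 at 30 min came nearest, with 9.9 points, and passed 10 with peaks within 1 kb joined. RefSeq on GRCh38.p14 gives MYC a longer span of 7518 bp, so some of what lies past the end used here may fall inside that span. The table also names the noncoding RNAs CASC11, within 2 kb upstream, and PVT1, the next gene downstream.

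Few regions were as fully covered as these. Peaks of the 3 lists joined across gaps of up to 5 kb gave MYC a domain of 9768 bp and KLF6 a domain of 13872 bp. The MYC domain ranked 49 and the KLF6 domain 55 by control cover, at 90.7% and 90.0%, among 5902 domains of at least 5 kb whose median was 24.1%. At 1 h they ranked 69 and 55, at 95.4% and 96.1%, against a median of 36.7%. Ranked by likeness of cover in the 3 lists, with lengths within 1.5 times, the domain nearest to that of MYC among 2693 was that of KLF6. The distance was 2.54 percentage points. In turn the MYC domain was nearest to that of KLF6 among 2152. The next nearest to MYC lay on chromosome 6 from 74221146 to 74231888, and to KLF6 on chromosome 19 from 795786 to 816215. Likeness here is of peak cover alone.

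**Figure D2:**
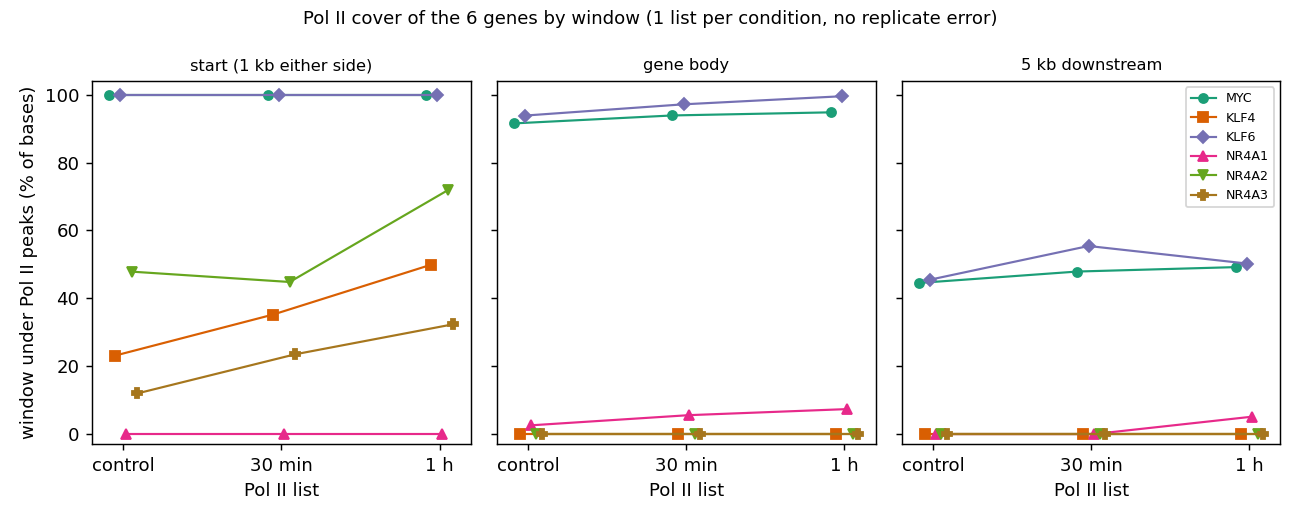
Share of bases under Pol II peaks, in percent, in the start window, gene body and 5 kb downstream of each gene, by list from control to 30 min and 1 h of merbarone. Points are 1 list per condition with no replicate error, shifted slightly sideways to separate genes. Start cover of KLF4 and NR4A3 is higher at each time, that of NR4A2 at 1 h, and MYC and KLF6 stay at 100%.

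At KLF4 Pol II was confined to the start in every list. The gene spans 4915 bp on chromosome 9 from 110247133 to 110252047 on the minus strand, and no list had a peak in its body past the first kb or in the 5 kb downstream. Its start window was covered over 23.1% in control, 35.2% after 30 min and 49.9% after 1 h. The peak over the first base was 313 bp wide in control, 355 bp after 30 min and 787 bp after 1 h. It grew on its upstream side, reaching 132, 142 and 610 bp before the start in those lists, and ended 180, 212 and 176 bp past it. A separate upstream peak, of 149 bp in control and 349 bp at 30 min, lay inside the span of that wider peak at 1 h. A further peak of 211 bp stood from 728 to 938 bp into the gene at 1 h alone. The KLF4 window gained 540 bp of cover at 1 h against control and lost 4 bp.

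At NR4A3 the peak on the start widened on both sides. The gene spans 45.0 kb on chromosome 9 from 102584137 to 102629173 on the plus strand, and beyond its first 294 bp no list had a peak in it or downstream. Its start window was covered over 11.95% in control, 23.5% after 30 min and 32.35% after 1 h. The peak over the first base was 239 bp wide in control, 470 bp after 30 min and 647 bp after 1 h. It ran 131, 231 and 352 bp upstream and 107, 238 and 294 bp into the gene in that order. A second site about 2 kb upstream changed less, with a peak of 771 bp in control, 867 bp after 30 min and 823 bp after 1 h. A peak of 163 bp between the sites was seen at 1 h alone. In all, the NR4A3 window gained 590 bp at 1 h against control and lost 0 bp. RefSeq on GRCh38.p14 lists the long noncoding RNA LOC101928438 within 2 kb upstream of NR4A3, and these data carry no strand to tell the 2 apart.

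NR4A2 differed from these in its course over time. It spans 8344 bp on chromosome 2 from 157180944 to 157189287 on the minus strand. Its start window was covered over 47.85% in control, 44.8% after 30 min and 71.85% after 1 h. Most of that Pol II lay before the start. Cover of the 2 kb upstream was 82.65% for control, 75.25% for 30 min and 100% for 1 h. In control 3 peaks of 420, 375 and 1670 bp stood between -2508 and 303 bp from the first base, and 30 min also had 3 there, of 746, 150 and 1492 bp. At 1 h a single peak of 3382 bp ran from 2945 bp upstream to 436 bp into the gene and held all bases covered in the other lists within the window. The start window thus fell by 3.05 percentage points at 30 min, and it fell by 10.55 points with like limits, which drop the 150 bp peak. Within 500 bp either side of the start, cover was instead 11.6 points higher at 30 min than in control, so the direction at 30 min turned with the window. The body past the first kb had no peak in any list.

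Further upstream, the NR4A2 domain went on for 10.5 kb before the start. Beyond 2 kb upstream it held 2632 bp of Pol II cover in control, 2829 bp after 30 min and 3389 bp after 1 h. Over its 10913 bp, the domain was covered over 42.1% in control, 42.5% after 30 min and 53.4% after 1 h. The RefSeq table names the noncoding RNA FLJ46875 as the next gene on that side. The domain with the nearest course lay on chromosome 20 from 34629428 to 34639442, with 41.7% in control, 43% after 30 min and 51.9% after 1 h. The next lay on chromosome 9 from 139971824 to 139982195.

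NR4A1 had no Pol II at the first base of its span. It spans 36.7 kb on chromosome 12 from 52416616 to 52453291 on the plus strand, and its start window was at 0% in all 3 lists. NR4A1 is known to have several start sites, some of them well inside this span, and the RefSeq table holds 2 promoter entries for it. Pol II lay at inner sites instead. Body cover was 2.57% in control, 5.57% after 30 min and 7.36% after 1 h, from 3, 4 and 5 peaks in that order.

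The inner site about 28 kb from the first base changed most in width among the inner sites. It was chosen for description after its values were seen. Pol II covered 206 bp there in control, from 28089 to 28294 bp past the first base. The peak was 879 bp wide after 30 min and 918 bp after 1 h, which is 4.27 and 4.46 times the control width. Among control peaks of 200 to 500 bp with a partner, 16.3% had a ratio at least as high after 30 min and 34.7% after 1 h, so the width at 30 min stood further from the rest than that at 1 h. The site at about 10 kb widened less, with 558 bp in control, 756 bp after 30 min and 1033 bp after 1 h. The sites near 10 and 14 kb belong to a domain of 6217 bp, with a further site near 15.7 kb. That further site had no peak in control, 1 of 154 bp after 30 min and 1 of 330 bp after 1 h. The domain was covered over 11.5%, 17.8% and 21.9% in the order of the lists, below the median domain each time. The domain nearest to it by cover lay at 123172968 to 123178939 on chromosome 7, and the next at 172656548 to 172662477 on chromosome 5. A narrow peak of 154 bp at about 14 kb in control was 198 bp wide after 30 min and had no overlap after 1 h.

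Small peaks near the NR4A1 end were seen at 1 h alone. These were 159 bp wide, 1.9 kb before the end, and 256 bp wide, reaching 926 bp past it. The first had the smallest width found in its list. RefSeq also places NR4A1AS, an antisense RNA, with LOC124902934 and LOC107984510, as overlapping NR4A1, and the peaks cannot be assigned to a strand.

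**Figure D3:**
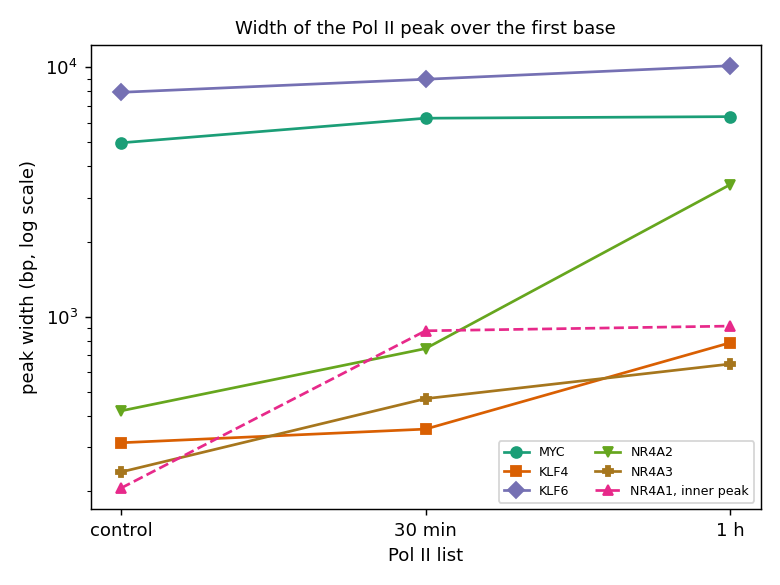
Width of the Pol II peak that covers the first base of each gene, in bp on a log scale, in control and after 30 min and 1 h of merbarone. The dashed line is the inner NR4A1 peak about 28 kb from the first base of its span, since no peak covers that base. Widths at KLF4, NR4A2 and NR4A3 at 1 h are 2.51 to 8.05 times those in control, and those at MYC and KLF6 are 1.27 and 1.28 times.

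Gains at the starts were set against tiles of the whole genome. At 30 min, KLF4 and NR4A3 gained at least 10 percentage points, by 12.1 and 11.55 points. That is 2 of the 5 genes with Pol II in the window, against 25.3% of 2 kb tiles with Pol II in either list. At 1 h the gains were 26.8 points at KLF4, 24 at NR4A2 and 20.4 at NR4A3, or 3 of 5 against 41.5% of tiles. With peaks within 1 kb joined in each list, the gain of NR4A2 at 1 h was 6.65 points, and that of KLF4 at 30 min was 9.5 points. MYC and KLF6 were full and had no room to gain, so 3 of the 5 windows could. No start window lost 10 points as deposited, and that of NR4A2 at 30 min did so with like limits or with peaks of at least 300 bp alone, against 12.3% of tiles after 30 min and 8.33% after 1 h. From 30 min to 1 h, NR4A2 gained 27.05 points and KLF4 14.7, or 2 of 5 against 34.3% of tiles. This KLF4 value was 3.2 points within 500 bp of the start, 4.15 points with peaks of at least 300 bp alone and 38.85 points with peaks within 1 kb joined. That of NR4A2 was 6.55 points with peaks within 1 kb joined. Tiles lie on a fixed grid and are not centred on starts, so they are a rough measure.

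Widths and domains were read in the same way. The 1 h peak over the first base was 2.51 times as wide as in control at KLF4, 8.05 times at NR4A2 and 2.71 times at NR4A3. Of control peaks 200 to 500 bp wide with a partner, 69.4% had a peak at 1 h at least 1.5 times as wide, with a median ratio of 2.66. At 30 min the ratios were 1.13 at KLF4, 1.78 at NR4A2 and 1.97 at NR4A3, and 47.8% of such peaks passed 1.5, with a median of 1.43. KLF4 and NR4A3 at 1 h thus stood near the median. The KLF4 peak at 1 h also spanned a separate upstream control peak. With peaks within 1 kb joined, the KLF4 control peak was 582 bp wide, against 787 bp for the 1 h peak as deposited. The ratio at 1 h with that joining was 2.66, as the joined 1 h peak took in a further peak of 211 bp inside the gene. The larger ratio of NR4A2 came from peaks that merged, and with peaks within 1 kb joined in every list it was 1.05 at 1 h and 0.991 at 30 min. Domains of at least 5 kb were found at 4 genes, but those of MYC and KLF6 were at 90.7% and 90.0% in control and could not gain 10 points. Both of the others did at 1 h, NR4A1 by 10.5 points and NR4A2 by 11.3 points, against 49.7% of all domains. Neither did at 30 min, against 21.4%. A count over 2 genes cannot be set against such a share. Of the 3 genes with peaks in the body, MYC and KLF6 were too full there as deposited to gain 10 points, and neither lost as much. With peaks of at least 300 bp alone, the KLF6 body was at 89.6% in control and gained 9.93 points at 1 h. The body of NR4A1 changed by less than 10 points, but at 35676 bp it is much longer than the 10 kb tiles, of which 9.34% changed in either direction after 30 min and 18.6% after 1 h. The bodies therefore say little against that background.

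**Figure D4:**
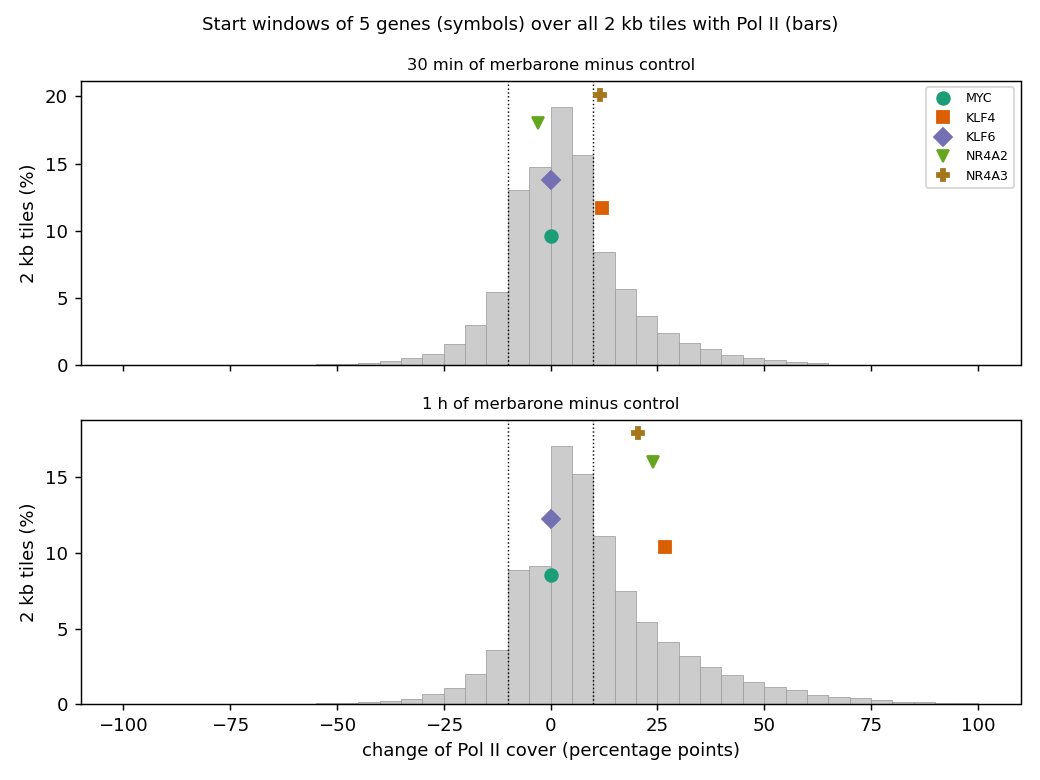
Change of Pol II cover in percentage points, merbarone minus control, at 30 min and 1 h. Grey bars give the percent of all 2 kb tiles with Pol II per 5 point bin, and symbols mark the start windows of 5 genes at a height with no meaning. Dotted lines stand at 10 points either way, and KLF4, NR4A2 and NR4A3 lie right of them at 1 h.

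TOP2A in untreated cells was found in the windows of 5 of the 6 genes, with KLF4 the exception. The share of like windows over the genome with TOP2A was not counted. At MYC, KLF6 and NR4A2 a short TOP2A peak stood just past the first base. It ran from 184 to 273 bp past it at MYC, from 135 to 215 bp at KLF6 and from 131 to 224 bp at NR4A2. All 3 lay inside the Pol II peak over the start in each list. MYC had another peak of 132 bp inside the gene, from 2119 to 2250 bp past the first base. At NR4A3 the TOP2A peak was not on the start but at the upstream site, from -1914 to -1841 bp counted from the first base.

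At NR4A1 TOP2A stood at the inner site about 28 kb from the first base, which widened most. The site at about 10 kb, with no TOP2A peak, widened as well. The TOP2A peak of 90 bp ran from 28566 to 28655 bp past the first base. It lay 271 bp from the nearest Pol II peak in control and inside the Pol II peak at 30 min and at 1 h. This was the only TOP2A peak of the 6 genes without control Pol II over it. The 2 maps come from separate libraries with separate lists, and TOP2A was mapped in untreated cells only.

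TOP2A was uncommon in Pol II domains as a whole. Domains built from the control list alone held TOP2A in 5.59% of 20013 cases, and in 9.85% of the 4093 that were at least 5 kb long. The longest control domain of MYC, KLF6, NR4A2 and NR4A3 held it, and those of KLF4 and NR4A1 did not. Domains of these genes were not matched to the rest by cover. The count by gene window above is of another unit and cannot be set against these shares. Of the genes with TOP2A just past the start, MYC and KLF6 had a start peak that was 1.27 and 1.28 times its control width at 1 h, and NR4A2 had 8.05 times. KLF4, with no TOP2A, stood at 2.51 times, and NR4A3, with TOP2A upstream, at 2.71 times. With 6 genes and 1 list a group, no relation between TOP2A and the change was tested.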

How the data were processed

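Per the labels' protocols, fixation was in 1% formaldehyde (10 min) and libraries were made by ChIPmentation. Of 16 libraries, 13 stand behind 4 deposited peak lists and 3 IgG libraries have no list here. Per the submitters' processing notes, Bowtie 1.2.0, MACS2 and deepTools 2.4.1 were used on hg19. As to the MACS2 version, peak threshold, background library and joining of replicates, these were not given in the sources used here. Values deposited by the authors are peak starts and ends in bp, with no score, counted from 0 with the end left out and printed from 1.

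Cover was counted per window in Python 3.11.15 with numpy 2.4.6 and matplotlib 3.10.9, and the interval functions were tested on simulated data. Spans were those of the rule that set the genes, on hg19. No hg19 annotation or genome was at hand, so no other gene of these pathways was placed and no hg19 sequence was read. RefSeq entries of GRCh38.p14 gave names, neighbours and promoters, with an entry for 4 of the 6 genes (KLF4, KLF6, NR4A1 and NR4A3; not MYC or NR4A2). Background tiles lay on a fixed grid and needed a peak in at least 1 of the 2 lists compared. A change counted from 10 percentage points. All 6 genes are named, with the 2 nearest domains for each gene whose domain was at least 5 kb. The genes, windows and motifs were chosen with earlier results of these data known. Peak widths over the first base and their classes were added after seeing the data.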

Additional observations from a re-analysis of the deposited data

How the results depend on the processing

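No paired analysis was possible because each group has 1 pooled list, for which reason no library could be left out either. With peaks within 1 kb joined, 1 gene in place of 2 gained start cover at 30 min, 1 in place of 2 gained from 30 min to 1 h, and 1 in place of 0 changed downstream at 30 min and from 30 min to 1 h. With that joining, 23.5% of 2 kb tiles gained at 30 min and 30.7% from 30 min to 1 h. Of 5 kb tiles, 17.3% gained and 9.66% lost at 30 min. From 30 min to 1 h, 22.5% of them gained and 9.32% lost. At 20 points in place of 10, start gains were 0 in place of 2 at 30 min and 1 in place of 2 from 30 min to 1 h. The shares of 2 kb tiles that gained at least 20 points were 11.1% and 17.3%. With peaks of at least 300 bp alone, start gains from 30 min to 1 h were 1 in place of 2, and domains gaining at 1 h 1 in place of 2. The shares gaining were then 42.8% of 2 kb tiles and 72.1% of all domains. With domains joined across 2 kb, domains gaining at 1 h were 0, as only 2 of the 4 genes kept a domain of at least 5 kb. Those were MYC and KLF6, too full to gain 10 points, while 61.8% of all such domains gained. The 3 start gains at 1 h became 2 with peaks within 1 kb joined and were 3 under the other alternatives run. Of 2 kb tiles, 35.8% gained at 1 h with that joining, 45.5% with like limits and 52.3% with peaks of at least 300 bp. At 20 points the share was 22.8%. No tile share was taken for the start window of 500 bp either side. Changes of single genes stayed within their counting interval in 48 of 54 cases with like limits, 39 of 54 with peaks of at least 300 bp, 42 of 54 with peaks within 1 kb joined, 25 of 36 with the start window of 500 bp either side and 12 of 18 with 10 kb downstream. These counts take in windows with a change of 0, which were full or had no peak in both lists compared. Such windows had little or no room to move, so the counts overstate how steady the other changes were. KLF4 start gains ran between 9.5 and 19.55 points at 30 min and between 21.5 and 48.35 points at 1 h. Within 500 bp of the start, NR4A3 gained 23.1 points at 30 min and 40.8 points at 1 h. Over the 5 alternatives to peaks and windows, 0 changes of at least 10 points as deposited turned sign, while 3 smaller ones did. The NR4A2 start change at 30 min was -3.05 points as deposited. It was -10.55 points with like limits or peaks of at least 300 bp. The same change was a gain of 11.6 points within 500 bp of the start and 0.1 points with peaks within 1 kb joined. Changes past 10 points thus went both ways there between alternatives. With peaks of at least 300 bp, downstream changes turned to -0.28 points at MYC at 30 min and 0.56 points at KLF6 from 30 min to 1 h. The cause of the shifts was otherwise not tested. Counts of genes with TOP2A, with Pol II past the end, or with a body change stayed within 1.5 times. Unknown depth limits all values: a missing peak may be a site not called.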
